A study of Mus musculus with 4 samples.

Results

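The 10 genes described here are among the best known marks of endothelial cells, the cells that line blood and lymph vessels. They are Kdr, Flt1, Tek, Tie1, Pecam1, Cdh5, Emcn, Plvap, Egfl7 and Sox18, taken by gene symbol as 10 of the 24421 gene rows of the Illumina TruSeq count data, and each had counts. The 4 libraries came from R1, an established mouse embryonic stem cell (ESC) line, in 2 states with 2 biological replicates each, Undiff and Day4. The methods describe Undiff as ESCs held in the presence of leukaemia inhibitory factor (Lif), a cytokine that blocks differentiation. The labels give embryoid bodies, which are floating aggregates of ESCs, for both states. By the labels, Undiff had 4 days as embryoid bodies and no RA (retinoic acid). Day4 is embryoid bodies kept for 4 days without Lif and then for 4 days with retinoic acid (RA), which is made from vitamin A. Its dose is 2 µM in the design text and 2 mM in the labels' protocol. Both states were grown in serum-containing medium without any genetic change, and no sample was sorted for endothelial cells. The states differ in Lif, in days of culture, in RA and, by the methods, in growth as aggregates, and these cannot be told apart here. Replicates of a state were grown and treated separately.

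Endothelial cells arise in the embryo from mesoderm that switches on the receptor Kdr under the control of transcription factors of the ETS, GATA and SOX families. Growth is driven by vascular endothelial growth factor (VEGF), which signals through Kdr, while Flt1 binds the same ligand strongly and signals weakly, so that it limits what reaches Kdr. A second pathway, of the angiopoietins and the receptors Tek (TIE2) and Tie1, stabilises the vessel wall, and junction proteins such as Cdh5 and Pecam1 hold neighbouring cells together.

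The libraries held 32099074 to 47730944 fragments counted on genes. The 10 genes together took 0.0221% and 0.0216% of these counts in Undiff and 0.0404% and 0.0407% in Day4. Fragments assigned to no gene or to several made up 13.9% and 15.1% of all counted fragments in Undiff against 9.41% and 9.61% in Day4, and the part of this gap in the values below was not tested. Values are normalized counts, which are counts scaled to a common library size. A gene was called higher or lower in Day4 when the edgeR quasi-likelihood test gave an adjusted p-value of at most 0.05, the log2 fold change was at least 1 in size and the mean normalized count was at least 5. Since RNA was taken from whole cultures, fewer cells of a type and less RNA per cell cannot be told apart in any of these values.

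The genes did not move as a block. Of the 10, 7 were higher in Day4, 2 were lower and 1 was not called. Over all 19891 genes tested, 42.8% were called, 22.2% higher and 20.6% lower. The median log2 fold change of the 10 genes was 2.14, and that of all genes tested was -0.03. The libraries of the states did not overlap for any of the 10 genes, which was also so for 85.4% of all genes tested. An adjusted p-value of at most 0.05 was reached by 9 of the 10 and by 75.6% of all genes. The 4 values of each gene are given below in the order Undiff replicate 1, Undiff replicate 2, Day4 replicate 1 and Day4 replicate 2.

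**Figure D1:**
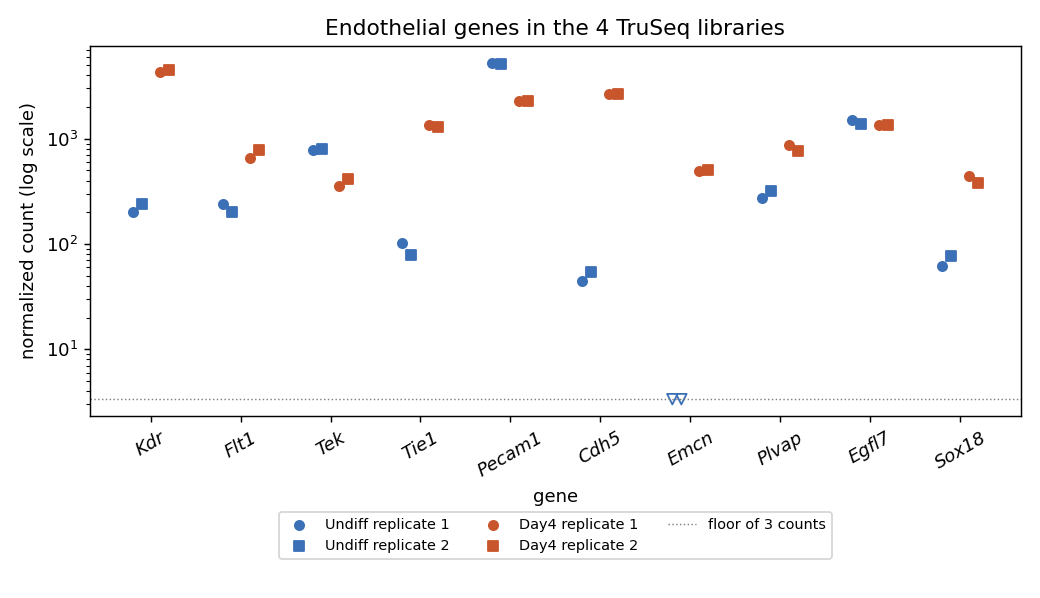
Normalized counts (log scale) of the 10 genes in the 4 libraries, 1 point per library, coloured by state. The Emcn values in Undiff, below the floor of 3 counts, are drawn at the floor as open triangles. For Cdh5 the Undiff points are at 44.8 and 53.8 and the Day4 points at 2664 and 2670, while for Pecam1 the Undiff points, at 5264 and 5138, are the upper ones, and for Egfl7 the states nearly meet.

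Kdr (VEGFR2), the main signalling receptor for VEGF, was low in Undiff and had the most counts of the 10 genes in Day4. Its normalized counts were 203 and 242 in Undiff and 4293 and 4478 in Day4. The log2 fold change was 4.31 (SE 0.08), or 19.8-fold, with an adjusted p-value of 1.7e-14 by edgeR. Flt1 (VEGFR1), the receptor that holds VEGF back, had 240 and 201 in Undiff and 660 and 773 in Day4. It rose by 1.70 on the log2 scale (SE 0.11), or 3.26-fold, with an adjusted p-value of 6.7e-09 by edgeR. Both receptors were thus higher in both Day4 libraries, Kdr by more. Scaled for exon length, Kdr stood at 1.27 and 1.8 times the level of Flt1 in the Undiff libraries and at 9.73 and 8.66 times in the Day4 libraries.

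Kdr lies on chr5:75932827-75978458 and Flt1 on chr5:147561604-147726011, both on the minus strand of GRCm38. The 250 bases upstream of the start of each are shown because the pair shares VEGF as a ligand yet rose by different amounts. They come from RefSeq on the GRCm38.p6 assembly, at chr5:75978456-75978705 for Kdr and chr5:147726012-147726261 for Flt1, and read 5′ to 3′ on the minus strand. Capitals mark AGGAAG on either strand (as CTTCCT on the other), the letters of a site that ETS factors bind.
Kdr: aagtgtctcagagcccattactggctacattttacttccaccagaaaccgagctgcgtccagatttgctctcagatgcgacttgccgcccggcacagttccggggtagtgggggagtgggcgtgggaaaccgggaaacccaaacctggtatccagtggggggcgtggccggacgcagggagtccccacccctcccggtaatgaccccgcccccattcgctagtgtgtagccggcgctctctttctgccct
Flt1: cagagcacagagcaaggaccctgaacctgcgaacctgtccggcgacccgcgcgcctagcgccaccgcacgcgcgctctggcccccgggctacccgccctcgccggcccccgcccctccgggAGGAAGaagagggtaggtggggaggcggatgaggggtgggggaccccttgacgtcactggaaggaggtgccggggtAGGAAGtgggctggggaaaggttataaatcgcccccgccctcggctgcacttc
The Kdr stretch has no capitals, and the Flt1 stretch has AGGAAG from positions -129 and -53, counted from the start. The Flt1 stretch also has the TATA box letters TATAAA from position -31.

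The TIE receptors moved in opposite directions. Tie1, which binds no angiopoietin strongly by itself and acts beside Tek, had normalized counts of 102 and 77.8 in Undiff and 1354 and 1289 in Day4. This is a log2 fold change of 3.86 (SE 0.11), or 14.5-fold, with an adjusted p-value of 9.4e-13 by edgeR. Tek, the angiopoietin receptor itself, had 779 and 806 in Undiff and 358 and 415 in Day4. Both Day4 values were below both Undiff values, and Tek fell by 1.02 on the log2 scale (SE 0.08), or 2.03-fold, with an adjusted p-value of 8.3e-08 by edgeR. The 95% interval of the Tek change, -1.21 to -0.84, reaches past the minimum size of a call on both sides. Tek was no longer called with library totals as the scaling (log2 fold change -0.96), without Undiff replicate 2 (-0.9977) and without Day4 replicate 1 (-0.93), each time still lower in Day4. Per exon length, Tek exceeded Tie1 7.96 and 10.8 times in the Undiff libraries, and Tie1 exceeded Tek 3.62 and 2.97 times in the Day4 libraries. In the order of levels the pair thus changed places.

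Tek lies on chr4:94739289-94874976 on the plus strand and Tie1 on chr4:118471191-118490061 on the minus strand. Their upstream bases are set side by side because the receptors of 1 complex moved apart. They cover chr4:94739039-94739288 for Tek and chr4:118489850-118490099 for Tie1, again from RefSeq on GRCm38.p6, on each gene's own strand and with AGGAAG on either strand in capitals. The RefSeq start of Tie1 lies inside the span given above, so most of the Tie1 stretch does too, while that of Tek lies before its span.
Tek: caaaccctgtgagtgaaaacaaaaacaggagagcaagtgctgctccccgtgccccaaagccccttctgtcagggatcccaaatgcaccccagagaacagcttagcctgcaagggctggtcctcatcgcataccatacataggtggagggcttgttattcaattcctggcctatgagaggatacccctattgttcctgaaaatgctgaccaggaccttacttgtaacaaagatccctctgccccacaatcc
Tie1: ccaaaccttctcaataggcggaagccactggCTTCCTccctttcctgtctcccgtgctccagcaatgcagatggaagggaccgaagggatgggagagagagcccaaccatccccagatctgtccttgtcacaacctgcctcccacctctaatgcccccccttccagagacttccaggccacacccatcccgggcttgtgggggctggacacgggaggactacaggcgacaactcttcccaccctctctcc
The Tie1 stretch has the letters on the opposite strand, from position -219. The Tek stretch has none, and holds the SOX letters ACAAAG from position -26 and, on the opposite strand, AACAAT from position -63.

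The junction genes also moved in opposite directions. Cdh5 (VE-cadherin), the adhesion molecule of endothelial adherens junctions, had normalized counts of 44.8 and 53.8 in Undiff and 2664 and 2670 in Day4. The replicates of each state lay close together and the states far apart, with a log2 fold change of 5.76 (SE 0.09), or 54.3-fold, and an adjusted p-value of 1.0e-14 by edgeR. Pecam1 (CD31), an immunoglobulin-like adhesion molecule of endothelial cells, platelets and leukocytes that mouse ESCs are also known to carry, had 5264 and 5138 in Undiff and 2269 and 2279 in Day4. It fell by 1.19 on the log2 scale (SE 0.05), or 2.29-fold, with an adjusted p-value of 2.7e-11 by edgeR. Pecam1 was the most abundant member by counts in Undiff, with 62.2% and 61.9% of the counts of the 10 genes, and had 15.4% and 15.3% in Day4. Cdh5 went from 0.53% and 0.649% of these counts to 18.1% and 17.9%. Per exon length, Pecam1 stood at 79.3 and 64.4 times the level of Cdh5 in the Undiff libraries and at 0.575 and 0.576 times in the Day4 libraries. The Day4 gap depended on the length used. As CPM (counts scaled to a common library total) per kilobase, merged exons gave Day4 means of 9.75 for Pecam1 and 16.95 for Cdh5. With the longest transcript as length these means were nearly equal, at 17.65 and 17.83. The Undiff means were then 40.37 and 0.33, so the excess of Pecam1 there remained. Cdh5 is on chr8:104101625-104144511 (plus strand) and Pecam1 on chr11:106654217-106750628 (minus strand).

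Emcn (endomucin), a sialomucin on the surface of venous and capillary endothelium, was at the edge of detection in Undiff. Its counts were 1 and 0 in Undiff and 472 and 655 in Day4, which is 493 and 503 as normalized counts. The summed counts, scaled for library size, stood at a ratio of 895 of Day4 over Undiff, with an exact 95% interval of 160 to 35400 that covers counting error only, and the adjusted p-value was 4.1e-13 by edgeR. Since the ratio rests on a single count in Undiff replicate 1, its size is loose, and the fitted log2 fold change was 12.01 without that library and 8.75 without Undiff replicate 2. Emcn lies on chr3:137341067-137432185 on the plus strand. Its upstream bases, chr3:137340828-137341077 on GRCm38.p6 from RefSeq, are shown as those of the member that was nearest to absent in Undiff, with AGGAAG on either strand in capitals.
Emcn: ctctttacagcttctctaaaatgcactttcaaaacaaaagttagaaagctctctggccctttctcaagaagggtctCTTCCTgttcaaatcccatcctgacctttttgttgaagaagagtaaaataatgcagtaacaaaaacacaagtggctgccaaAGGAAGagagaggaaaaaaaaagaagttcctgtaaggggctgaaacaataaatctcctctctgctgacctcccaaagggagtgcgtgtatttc
The letters stand at position -93 on the strand of the gene and at -174 on the other. The half-site letters AGGTCA, which nuclear receptors including those for RA bind in pairs, stand at -153 and -29, both on the other strand.

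Plvap, which forms the diaphragms of fenestrae and caveolae in endothelial cells, had, in these TruSeq libraries, normalized counts of 273 and 319 in Undiff and 866 and 766 in Day4. It rose by 1.46 on the log2 scale (SE 0.10), or 2.75-fold, with an adjusted p-value of 8.8e-09 by edgeR. Plvap lies on chr8:71497765-71511752 (minus strand) and its span meets that of Gtpbp3 on the other strand, with no exon base in common. Gtpbp3, a mitochondrial tRNA-modifying enzyme, had a log2 fold change of 0.11 with an adjusted p-value of 0.13 by edgeR. The span of Cdh5 meets that of the antisense gene Gm29682, again with no exon base in common, and Gm29682 had 0 counts in every library.

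Sox18, a transcription factor of the SOXF group that acts in arterial and lymphatic endothelium, had 61.5 and 76.6 in Undiff and 441 and 382 in Day4. The log2 fold change was 2.57 (SE 0.15), or 5.95-fold, with an adjusted p-value of 1.5e-09 by edgeR. Sox18 was the only regulator of transcription among the 10 genes. It lies on chr2:181669836-181671640 on the minus strand.

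Egfl7, a secreted protein that endothelial cells deposit around forming vessels, was the member not called. Its normalized counts were 1490 and 1384 in Undiff and 1346 and 1351 in Day4. Both Day4 values were below both Undiff values, but the log2 fold change was only -0.09, with a 95% interval of -0.22 to 0.03 and an adjusted p-value of 0.17 by edgeR. The interval lies well inside the minimum size of a call on both sides. Egfl7 is on chr2:26580014-26593120 (plus strand) and is the host gene of a microRNA known from endothelial cells, miR-126. The mature 3p arm from RefSeq, at chr2:26591402-26591423 on the plus strand, is shown because it shares this locus, with the seed, bases 2 to 8, in capitals.
miR-126a-3p: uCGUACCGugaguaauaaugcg
The TruSeq counts do not measure mature microRNAs, and the precursor gene Mir126a had 1 count in Day4 replicate 1 and 0 in the other libraries. Fragments assigned to several genes were left out, so those on bases shared with Egfl7 exons may be missing from the Mir126a counts. Merged exons of Egfl7 share 73 bases with Mir126a, 58 with Mir126b, 264 with Gm20532 and 64 with Agpat2, which is on the opposite strand and has a log2 fold change of -1.10 (adjusted p-value 9.6e-09 by edgeR). The strand setting used for counting TruSeq fragments on genes is not given in the sources used here, so the part of Agpat2 in the Egfl7 counts was not tested.

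**Figure D2:**
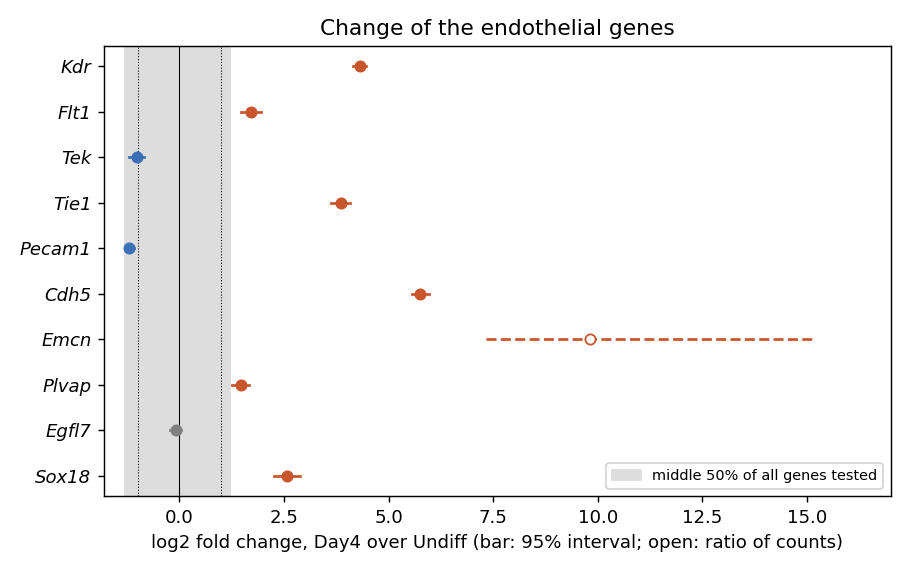
Log2 fold change of Day4 over Undiff for the 10 genes, with 95% intervals from edgeR (2 libraries per state), dotted lines at the minimum size of a call and a grey band from the lower to the upper quartile of all genes tested (-1.29 to 1.21). The 7 higher genes lie right of the band, the points of Tek, Pecam1 and Egfl7 lie inside it, and the open point with a dashed bar is the ratio of counts for Emcn (895) with its counting interval.

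Promoter windows from RefSeq were at hand for 6 of the 10 genes, 8 windows in all because Egfl7 has 3 starts. There was none for Pecam1, Cdh5, Plvap and Sox18. Each window of 300 bases runs from 250 before to 50 after the start, and both strands were searched. AGGAAG was found in 5 of the 8 windows, those of Flt1, Tie1 and Emcn and 2 of Egfl7, against 35.4% of all 32851 windows. The longer ETS letters CCGGAAGT were in 0 of the 8 windows (3.89% of all windows). The SOX letters ACAAAG were in 2 windows (18.7%), of Tek and Egfl7, and AACAAT in 2 (10.7%), of Tek and Emcn. AGGTCA was in 2 windows (16.3%), of Emcn and Egfl7, and its variant AGTTCA in 0 (14%). TATAAA was in the Flt1 window only (13.6%), and the GATA letters GATAAG in the Tek window only (7.44%), at position 38 after the start. None of these letter strings contains another. These are matches of letters and not measured sites. The windows with AGGAAG belong to genes that rose and to Egfl7, which was not called. Those without it belong to Kdr, which also rose, to Tek, which was lower, and to Egfl7.

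Levels of different genes were compared as CPM (counts scaled to a common library total) per kilobase of merged exons. In Undiff the order of the mean levels was Pecam1 at 22.3, Egfl7 at 10.7, Tek at 4.50, Plvap at 3.98, Sox18 at 1.14, Kdr at 0.658, Tie1 at 0.489, Flt1 at 0.436 and Cdh5 at 0.314 CPM per kb, with Emcn at the floor. In Day4 it was Cdh5 at 16.95, Kdr at 13.0, Plvap at 11.0, Egfl7 at 10.1, Pecam1 at 9.75, Tie1 at 7.18, Sox18 at 6.79, Emcn at 2.46, Tek at 2.19 and Flt1 at 1.42 CPM per kb. Of the 9 neighbouring pairs in each order, 8 did not overlap between libraries. The exceptions were Tie1 and Flt1 in Undiff and Tie1 and Sox18 in Day4. Cdh5 went from 9th to first of the 10, while Pecam1 went from first to 5th. Among all genes with a length, Cdh5 moved from percentiles 31.1 and 32.9 in the Undiff libraries to 83 in both Day4 libraries. Pecam1 moved from 87.4 and 87 to 73 and 73.1, and Egfl7 stayed between 73.5 and 76.8. Even in Undiff, then, Pecam1, Egfl7, Tek and Plvap were above the middle of all genes per length, while Kdr, Flt1, Tie1, Sox18, Cdh5 and Emcn were below it. With the longest transcript in place of merged exons, 11 of the 20 ranks were kept, and Kdr stood above Egfl7 and Cdh5 in Day4.

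**Figure D3:**
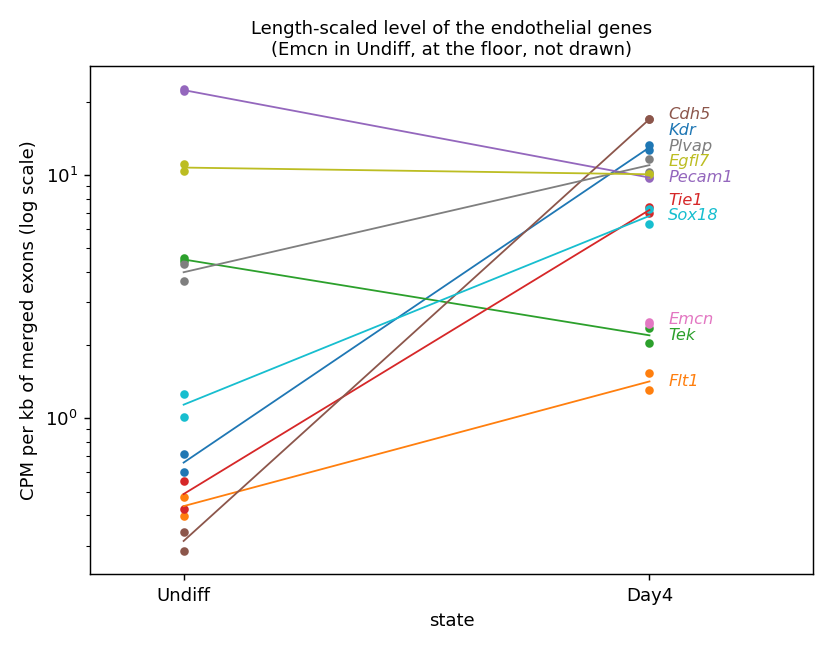
Length-scaled level (CPM per kb of merged exons, log scale) of each gene in Undiff and Day4, with points for the libraries and lines joining the means of the states. Lines cross because Cdh5 and Kdr climb past Tek and Pecam1, which descend, and Egfl7 runs nearly flat. Emcn in Undiff, at the floor, is not drawn.

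The partners of these receptors were counted from lists. Of 8 other VEGF genes, 4 were higher, 1 was lower and 3 were not called, with a median log2 fold change of 1.07. The co-receptor Nrp1, which binds VEGF beside Kdr, rose by 5.46 on the log2 scale, or 44.1-fold. The ligand Vegfa rose by 1.15 and the lymphatic receptor Flt4 by 1.45 on the log2 scale. The ligand Vegfd fell by 2.56, and the co-receptor Nrp2 had a log2 fold change of -0.05 with an adjusted p-value of 0.46 by edgeR (0.02 with library totals, 0.05 without Undiff replicate 2). All 6 genes of a list of angiopoietins and TIE partners were higher, with a median of 5.12, while Tek was lower. Angpt1, the activating ligand of Tek, had 3 counts in each Undiff library and 2886 and 3816 in Day4, a ratio of 887 with an exact 95% interval of 408 to 2420 for counting error. Angpt2, a ligand that can oppose it, rose by 5.05 on the log2 scale. Svep1, an extracellular matrix protein that binds Tie1, rose by 6.46 from 2 and 6 counts in Undiff, or by 5.79 without Undiff replicate 1 and 7.52 without Undiff replicate 2. Which cells of the cultures held ligand and which held receptor RNA was not measured.

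Of 21 transcription factors known from endothelial cells, 17 were higher, 3 were lower and 1 was not called, with a median of 3.20. Nr2f2, a factor of venous identity that is also expressed in mesenchyme, rose by 10.34, Gata2 by 5.97 and Ets1, a factor of the ETS family, by 3.91 on the log2 scale. Binding of Ets1 to the letters marked in capitals above was not measured. The lower genes were Klf2, a flow-induced factor that ESCs also use, by a log2 fold change of -4.60, Hhex by -1.24 and Etv2 by -4.90. Etv2, which acts briefly at the onset of the endothelial lineage, had 110 and 86 counts in Undiff and 4 in each Day4 library. Of 28 further surface and junction genes, 19 were higher, 3 were lower and 6 were not called, with a median of 1.94. Plxnd1, a semaphorin receptor, rose by 2.69, the caveolar protein Cav1 by 2.48 and Cd34 by 1.56 on the log2 scale. Jam2 fell by 3.11, the guidance receptor Robo4 by 1.21 and Vwf, the clotting factor stored in endothelial granules, by 1.20, so that Pecam1 and Tek were not the only vessel genes that were lower in Day4. Mmrn2 had a log2 fold change of -0.05, with an adjusted p-value of 0.56 by edgeR (0.02 with library totals).

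Several of the 10 genes are shared with other cell types, whose markers moved between the same libraries. The summed level of the 10 genes was 221.7 to 225.9 CPM in Undiff and 393.9 to 398.2 CPM in Day4. That of 10 pluripotent cell markers was 5003 to 5031 CPM in Undiff and 21.06 to 26.7 CPM in Day4. All 10 were lower (median -7.77), among them Pou5f1 by -7.87, Tdgf1 by -11.21 and Dppa5a by -8.21 on the log2 scale. Of 15 blood cell markers, 8 were higher, 3 were lower and 4 were not called, with a median of 1.97. Their summed level was 117.2 to 119.9 CPM in Undiff and 181.9 to 216.2 CPM in Day4. The Undiff sum came mainly from Kit and Spn, both lower in Day4, with mean normalized counts of 2513 and 1538 in Undiff. The next gene, Itga2b, had 194 there. The embryonic globins rose from a few counts in Undiff, so that their folds are loose. Hbb-y went from 3 and 0 counts to 1932 and 1962 (ratio 1030, exact 95% counting interval 353 to 5000) and Hba-x from 1 and 0 to 1728 and 1937 (ratio 2910, interval 522 to 115000). Left out in turn, Undiff replicates 1 and 2 gave fitted log2 fold changes of 13.81 and 9.07 for Hbb-y and 13.72 and 10.46 for Hba-x. Hbb-bh1, with 1 and 5 counts in Undiff, rose by 8.21 on the log2 scale, or by 7.39 without Undiff replicate 1 and 9.79 without Undiff replicate 2. Spi1 fell from 25 and 22 counts to 1 and 0 (ratio of Undiff over Day4 59.2, interval 10.1 to 2390), with a fitted log2 fold change of -7.76 without Day4 replicate 1 and -4.51 without Day4 replicate 2. Spn fell by 6.23 and Kit was lower by a log2 fold change of -1.003, a call lost under some alternatives, while Gata1 had -0.44 with an adjusted p-value of 0.083 by edgeR. The defining leukocyte marker Ptprc had 2 and 5 counts in Undiff and 0 in both Day4 libraries. Hba-a1, which has a near-identical copy and loses fragments that align to both, had 0 counts throughout.

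Of 16 mural cell and fibroblast markers, 12 were higher, 2 were lower and 2 were not called, with a median of 3.0. Their summed level was 228.3 to 242.3 CPM in Undiff and 1924 to 2051 CPM in Day4. Col3a1 rose by 9.14, Col1a2 by 4.38 and Notch3 by 1.15, whereas Anpep fell by 2.50 and Thy1 by 3.80 on the log2 scale, and Des had -0.19 with an adjusted p-value of 0.10 by edgeR. Of 13 trophoblast and visceral endoderm markers, 4 were higher, 5 were lower and 4 were not called, with a median of 0.25, or -0.18 with genes at 0 counts in 1 state set to their bound. Their summed level was 44.62 to 49.22 CPM in Undiff and 21.64 to 23.1 CPM in Day4. Apoa1 rose by 3.87, Krt7 by 1.13 (a call lost without Undiff replicate 2) and Afp, with 0 counts in Undiff, was at least 18.3-fold higher against a floor of 3 counts per library, while Cubn fell by 3.66, Hand1 by 1.86 and Ascl2 by 3.23 on the log2 scale. Elf5 had 1.20 with an adjusted p-value of 0.053 by edgeR, and 0.39 without Day4 replicate 2, which held 31 counts against 10 in Day4 replicate 1, and Prl3d1 had 0 counts throughout. The part of these other cell types in the values of the 10 genes was not tested.

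**Figure D4:**
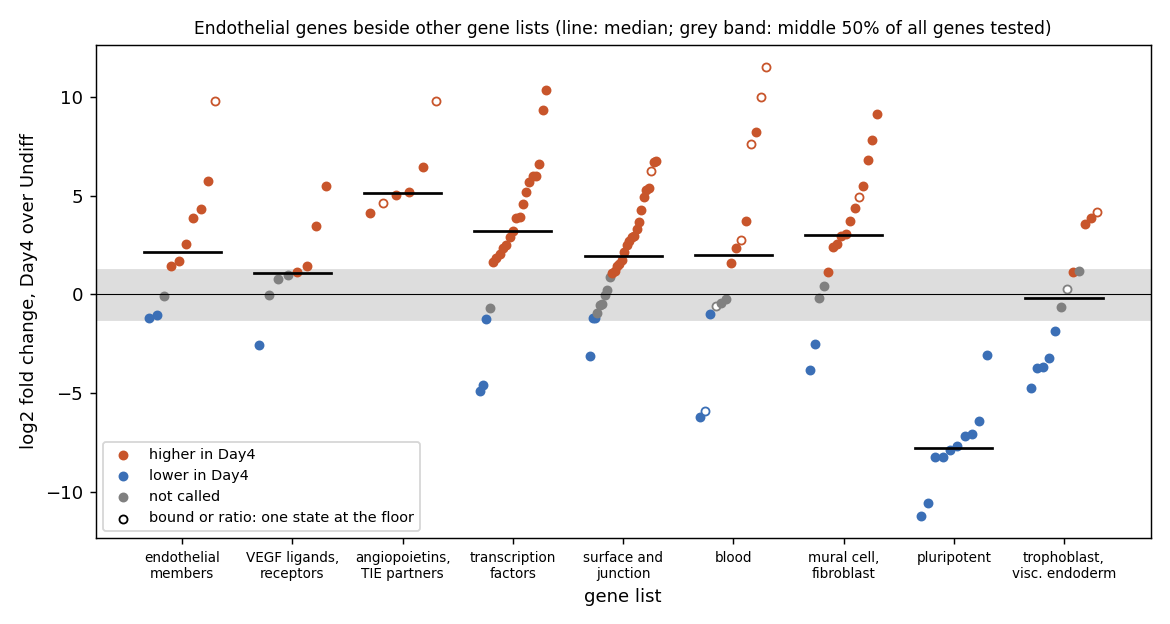
Log2 fold changes of Day4 over Undiff for the 10 genes and the 8 other lists, 1 point per gene, coloured by call, with a line at the median of each list and a grey band from the lower to the upper quartile of all genes tested. Open points are genes with 1 state at the floor, drawn as the ratio of summed counts or, where that state had no counts, as a bound. The 10 genes (median 2.14) span both sides of 0, as do the transcription factors (3.20), while all angiopoietin genes are above 0 and all pluripotent markers (-7.77) below it.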

How the data were processed

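The authors counted uniquely aligned fragments per gene with HTSeq, after trimming by cutadapt and alignment to mm10 by STAR 2.4.2a. The deposited values are raw whole-number counts per gene symbol. Summary lines that name no gene (9.41% to 15.1% of fragments per library) were left out. The labels name a stranded TruSeq kit beside TruSeq RNA v2, and the strand option for counting on genes is not given in the sources used here.

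Day4 was tested against Undiff in the 19891 genes with a count by edgeR 4.0.16 in R 4.3.3 (TMM scaling, glmQLFit with legacy = FALSE, glmQLFTest), with Benjamini-Hochberg adjustment over all of them. That option was set after the default, run here as an alternative, gave an unbounded prior. The standard error is the log2 fold change divided by the square root of F. The call thresholds are those the study used with DESeq2. Counts of 3 or fewer are at the floor. A state at 0 in both libraries gave a bound against 3 counts per library. One with 1 to 3 counts gave the ratio of summed counts per effective library size, with an exact binomial (Clopper-Pearson) interval. Between 2 and 2 libraries an exact permutation test cannot go below 0.333, so none was used. On simulated counts of 19510 genes, edgeR recovered 100 of 100 genes changed 4-fold and 100 of 100 changed 8-fold, with 0 false calls among the unchanged genes. Only 200 genes were changed there, while 42.8% were called in the data. Smaller changes were not simulated, so calls near the minimum fold change were not tested by it.

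The members and lists were chosen with earlier results of these data known, and lists are described without a list test. From each list were named up to 3 called genes of highest mean CPM per direction, those at the floor in all libraries and the most abundant with an adjusted p-value above 0.05. Ptprc was added after its values were seen. Positions and exon lengths (matched for 95.9% of genes) are from GENCODE vM21 on GRCm38, the assembly of mm10. Promoter and microRNA sequences are from RefSeq on GRCm38.p6, whose gene starts can differ from those of GENCODE. A comparison of protein sequences was not run. Alternatives were DESeq2 1.42.0 with and without shrinkage, its size factors or library totals in place of TMM, filterByExpr, a replicate block, thinning to the smallest total, no minimum count or fold change, leaving out each library, and longest-transcript lengths. Floors and these intervals cover counting error only.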

Additional observations from a re-analysis of the deposited data

How the results depend on the processing

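None of the called genes given changed direction under any alternative. Of the genes not called, Nrp2 turned from -0.05 to 0.02 with library totals and 0.05 without Undiff replicate 2, and Mmrn2 from -0.05 to 0.02 and 0.0027 in the same settings. Of the 10 endothelial genes, 9 were called under all of them except 8 with library totals, without Undiff replicate 2 and without Day4 replicate 1, where Tek missed the minimum fold change (-0.93 to -1.18 over all settings). The log2 fold change ranged from 4.18 to 4.43 for Kdr, from 5.63 to 5.89 for Cdh5, from -1.23 to -1.13 for Pecam1 and from -0.14 to -0.03 for Egfl7, which was never called. The size of the adjusted p-values depended on the fit. By edgeR, that of Kdr was 1.7e-14 in the main fit and 1.7e-05 after thinning, and that of Cdh5 was 1.0e-14 and 1.5e-05. Leaving out a library leaves 1 state with a lone library, assumed to vary like the other state. Without a minimum fold change 14309 genes were called, 7305 higher and 7004 lower. With the longest transcript as gene length 11 of 20 ranks of the level order were kept. With a replicate block 9 endothelial genes were called, as without it, and 8515 of all genes against 8521. Deviations of same-numbered libraries from the state means had a correlation of -0.007 across 16472 genes. With 1 replicate difference per state, this cannot show whether same-numbered libraries shared a batch. Kit was not called with library totals (-0.94), without Undiff replicate 1 (-0.97) and without Day4 replicate 1 (-0.98), nor Krt7 without Undiff replicate 2 (0.90). Elf5 was called with library totals, filterByExpr, the replicate block, the earlier quasi-likelihood method, which was added after seeing the data, and without Day4 replicate 1 (1.13 to 1.60), but had 0.94 without Undiff replicate 2 and 0.39 without Day4 replicate 2 (adjusted p-value 0.61 by edgeR). With 2 replicates per state and counts of 0 or 1 for Emcn in Undiff, depth leaves the size of its fold change loose.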
